A study of Nicotiana benthamiana with 8 samples.

Results

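GDSL esterases and lipid transfer proteins were followed in leaves of Nicotiana benthamiana, a tobacco relative used for transient gene expression, after infiltration with the apple transcription factor gene MdMYB68. A contig of the deposited table was taken as a member when at least 1 of its 2 annotations, against plant proteins at large or against the best Arabidopsis thaliana match, held "gdsl", "lipid-transfer" or "lipid transfer". The rule, which uses no measured value, gave 37 of 3305 contigs. Of these, 17 were GDSL esterases and 20 were lipid transfer proteins. Contigs are assembled transcripts, and several of them can come from 1 gene or from related copies of it, so they are not independent replicates.

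Leaves of 4-week-old plants were infiltrated with Agrobacterium tumefaciens GV3101-pMP90 carrying either MdMYB68 under the constitutive CaMV 35S promoter in the vector p103 or the empty p103. MdMYB68 was expressed as a fusion to green fluorescent protein. Both groups also received pBIN61-p19, which encodes a viral suppressor of gene silencing, so the comparison carries infiltration and p19 on both sides. Each group had 4 biological replicates, each a pool of 3 plants with 4 infiltrated leaves per plant, and RNA was collected 4 days after infiltration. The 8 libraries held between 29371282 and 34080202 mapped reads, of which 6.921 to 8.756% (empty vector) and 17.52 to 18.721% (MdMYB68) fell on the listed contigs. The expression is transient and driven in whatever leaf cells receive the construct from the bacteria, so the model is neither a stable line nor apple skin.

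GDSL esterases, also called GELPs in Arabidopsis, are serine hydrolases named after a conserved motif around their catalytic serine. Some of them join or break the ester bonds of cutin, the polyester of the leaf surface, and of suberin, the polyester of bark and of the root endodermis. Lipid transfer proteins are small, secreted, cysteine-rich proteins with a hydrophobic cavity that binds lipids. Several are tethered to the outer face of the plasma membrane by a glycosylphosphatidylinositol (GPI) anchor and have been linked to the supply of lipids to the cuticle and to suberin. The first family thus holds enzymes that act on the polymer, and the second holds carriers of lipids.

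Levels are given as RPKM of all mapped reads, that is the reads on a contig scaled by its length in kilobases and by all reads mapped in the library. The deposited RPKM differ from these, because the authors took as denominator only the reads of the reference set to which a contig belongs, either primary or alternate. Reads were compared with edgeR's quasi-likelihood test, with all mapped reads as library size p-values were adjusted across the 3305 contigs of the table (Benjamini-Hochberg), and a contig was called at an adjusted p under 0.001. A log2 fold change is given ± its standard error (SE). The authors had chosen the listed contigs on these same libraries, so no call below is independent evidence of a difference. Contigs of either family that did not change are absent, so ranks, sums and shares below are among the listed contigs only.

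All 20 lipid transfer protein contigs rose with MdMYB68, whereas the GDSL esterases went both ways, with 15 called higher, 1 called lower and 1 lower without a call. Over all listed contigs 83.4% were called higher and 12.4% lower, so the shares of members called higher (88.2% of the GDSL esterases and 100.0% of the lipid transfer proteins) lay near the background and are not a result about the families. In either direction 95.9% were called. For each of the 37 contigs the 4 MdMYB68 libraries lay clear of the 4 control libraries, as they did for 100.0% of the listed contigs. The directions depend on the scaling. Under TMM factors or DESeq2's size factors, both computed on the listed contigs themselves, the median of all listed contigs fell by 2.94 and 2.91 on the log2 scale, and 61.2% and 62.1% of the calls were higher, against 87.0% with all mapped reads. Under both, the lipid transfer protein contigs Nbv5tr6338052, Nbv5tr6310584 and Nbv5tr6310583 and the GDSL esterase contigs Nbv5tr6213358 and Nbv5tr6241864 turned to below 0. Of these, only Nbv5tr6241864 was then called lower. Both sets of factors assume that most contigs are unchanged, whereas the listed contigs were selected as changed. With library totals without the listed contigs, chosen after seeing the data, 87.2% of the calls were higher and all 37 members kept their direction. In whole leaves, more RNA per cell and more cells of a type cannot be told apart.

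The size of the change differed more than its direction. The median log2 ratio of mean levels was 5.49 for the lipid transfer proteins, a 45.0-fold change, and 4.39 for the GDSL esterases, a 21.0-fold change, beside 3.35, or 10.2-fold, for all listed contigs. Ratios ran from 2.48 to 9.62 in the lipid transfer proteins and from -2.93 to 9.86 in the GDSL esterases, so that the families overlapped widely. Of the lipid transfer proteins 6 stood above 100-fold and 13 above 16-fold, against 3 and 11 of the GDSL esterases, the 3 including 1 lower bound. Relative to the median of all listed contigs, the fitted median lay 2.12 higher for the lipid transfer proteins and 1.04 higher for the GDSL esterases with all mapped reads, and 2.13 and 1.02 higher under TMM factors. Another scaling moves all contigs by nearly the same amount, so this agreement between scalings was fixed in advance.

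The order of the family medians depended on the reference set. Among primary contigs the median log2 ratio was 6.14 for 15 lipid transfer proteins and 4.32 for 9 GDSL esterases. Among alternate contigs the order was the other way round, with 2.88 for 5 lipid transfer proteins and 5.35 for 8 GDSL esterases. The median level was lower for alternate contigs in both families, although the alternate Nbv5tr6370143 had the highest level of all members. The median GDSL esterase level with MdMYB68 was 44.6 RPKM for primary and 4.63 RPKM for alternate contigs, and the corresponding lipid transfer protein levels were 62.7 and 4.9 RPKM. No test was made over the members, which are not replicates.

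**Figure D1:**
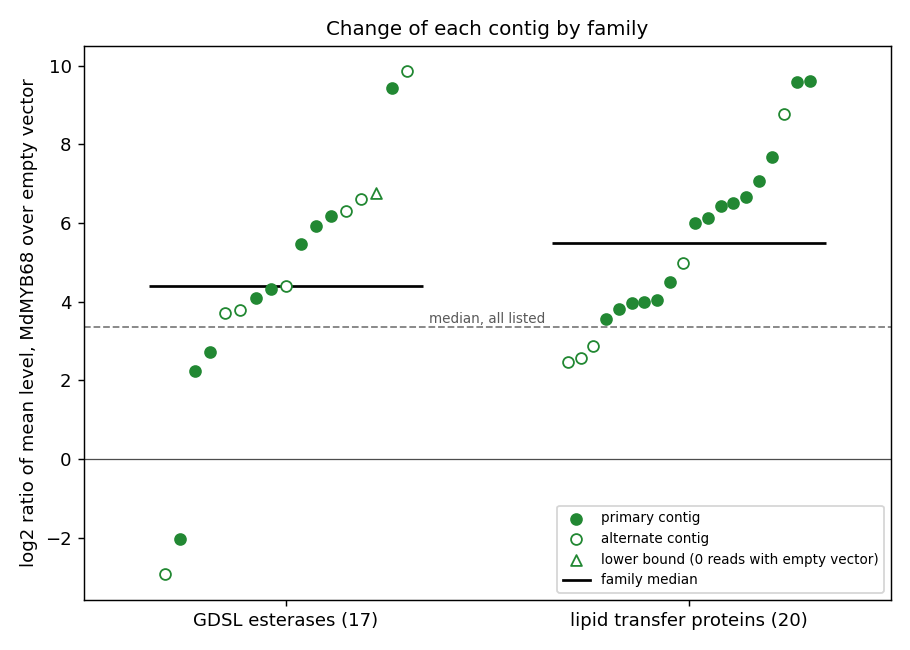
Each point is a contig, with the log2 ratio of its mean level in the 4 MdMYB68 libraries over that in the 4 empty vector libraries on the vertical axis and its family on the horizontal axis. Filled points are primary and open points alternate contigs, the triangle is a lower bound for a contig without a read in the empty vector group, black lines are family medians (4.39 and 5.49) and the dashed line is the median of all listed contigs (3.35). Only 2 points, both GDSL esterases, lie below 0 with all mapped reads as library size, and the 5 lowest positive points turn negative when scaled on the listed contigs.

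Among the GDSL esterases, the largest changes were in contigs matching GELP38 (AT1G74460), GELP51 (AT2G23540) and GELP96 (AT5G37690), which in Arabidopsis roots take part in building the suberin polymer. The GELP38-like contig Nbv5tr6222730 stood at 0.383, 0.593, 0.56 and 0.327 RPKM in empty vector replicates 1 to 4 and at 313.6, 319.2, 349.3 and 314.5 RPKM in MdMYB68 replicates 1 to 4. It was thus barely read in control leaves and the highest of the listed GDSL esterases with MdMYB68. Its mean rose from 0.465 ± 0.131 to 324.1 ± 17.0 RPKM (SD, n = 4 each), a 696.4-fold change with a log2 fold change of 9.44 ± 0.21 (SE) and an adjusted p of 2.7e-10 in edgeR's quasi-likelihood test. All of its reads were uniquely placed (100.0%). The alternate contig Nbv5tr6264775, whose plant protein annotation names the same gene, had 0, 1, 0 and 1 reads with the empty vector and 470, 535, 512 and 417 reads with MdMYB68. With 2 reads against 1934, its ratio was 926.2 with a 95% exact Clopper-Pearson interval of 256.0 to 7653.3, which covers counting error only.

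The GELP51-like contig Nbv5tr6222428 had the second highest level of the listed GDSL esterases with MdMYB68. It stood at 1.28, 3.53, 2.59 and 1.79 RPKM with the empty vector and at 157.0, 162.8, 168.6 and 184.0 RPKM with MdMYB68. The lowest MdMYB68 library was 44.5 times the highest empty vector library. The mean rose 73.2-fold, from 2.3 ± 0.981 to 168.1 ± 11.6 RPKM (SD, n = 4 each), with a log2 fold change of 6.19 ± 0.3 (SE) and an adjusted p of 1.3e-08 by edgeR's quasi-likelihood test. An alternate contig with the same match, Nbv5tr6342364, had no read with the empty vector and 102, 31, 103 and 106 reads with MdMYB68. It was at least 109.2-fold higher if 3 reads are assumed for the whole empty vector group (adjusted p = 4.6e-05, edgeR), but none of its reads was uniquely placed (0.0%), so its reads cannot be assigned to it rather than to a related contig.

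The 3 GELP96-like contigs, all alternate, were low in both groups and shared most of their reads with other contigs. Nbv5tr6408655 had 7 reads in empty vector replicate 2 and none in the others, and stood at 3.51, 5.18, 5.28 and 5.23 RPKM with MdMYB68. Nbv5tr6369381 had 14 reads in the same empty vector library and none in the others, and stood at 4.78, 6.91, 4.47 and 9.47 RPKM with MdMYB68. Their control values thus rest on 1 library. The ratios were 97.9 and 79.3, and without empty vector replicate 2 they became at least 164.1 and at least 266.6 if 3 reads are assumed for the remaining control libraries. The last of them, Nbv5tr6291143, stood at 0.38, 0, 0.617 and 0.369 RPKM with the empty vector and at 5.02, 5.02, 2.91 and 4.87 RPKM with MdMYB68, a 13.0-fold change. Its adjusted p of 0.00027 in edgeR's quasi-likelihood test rose to 0.0010 without MdMYB68 replicate 1 and 0.0011 without MdMYB68 replicate 4, past the threshold in both. Uniquely placed reads were 12.4%, 6.4% and 1.8% of the reads on these contigs in the order given.

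**Figure D2:**
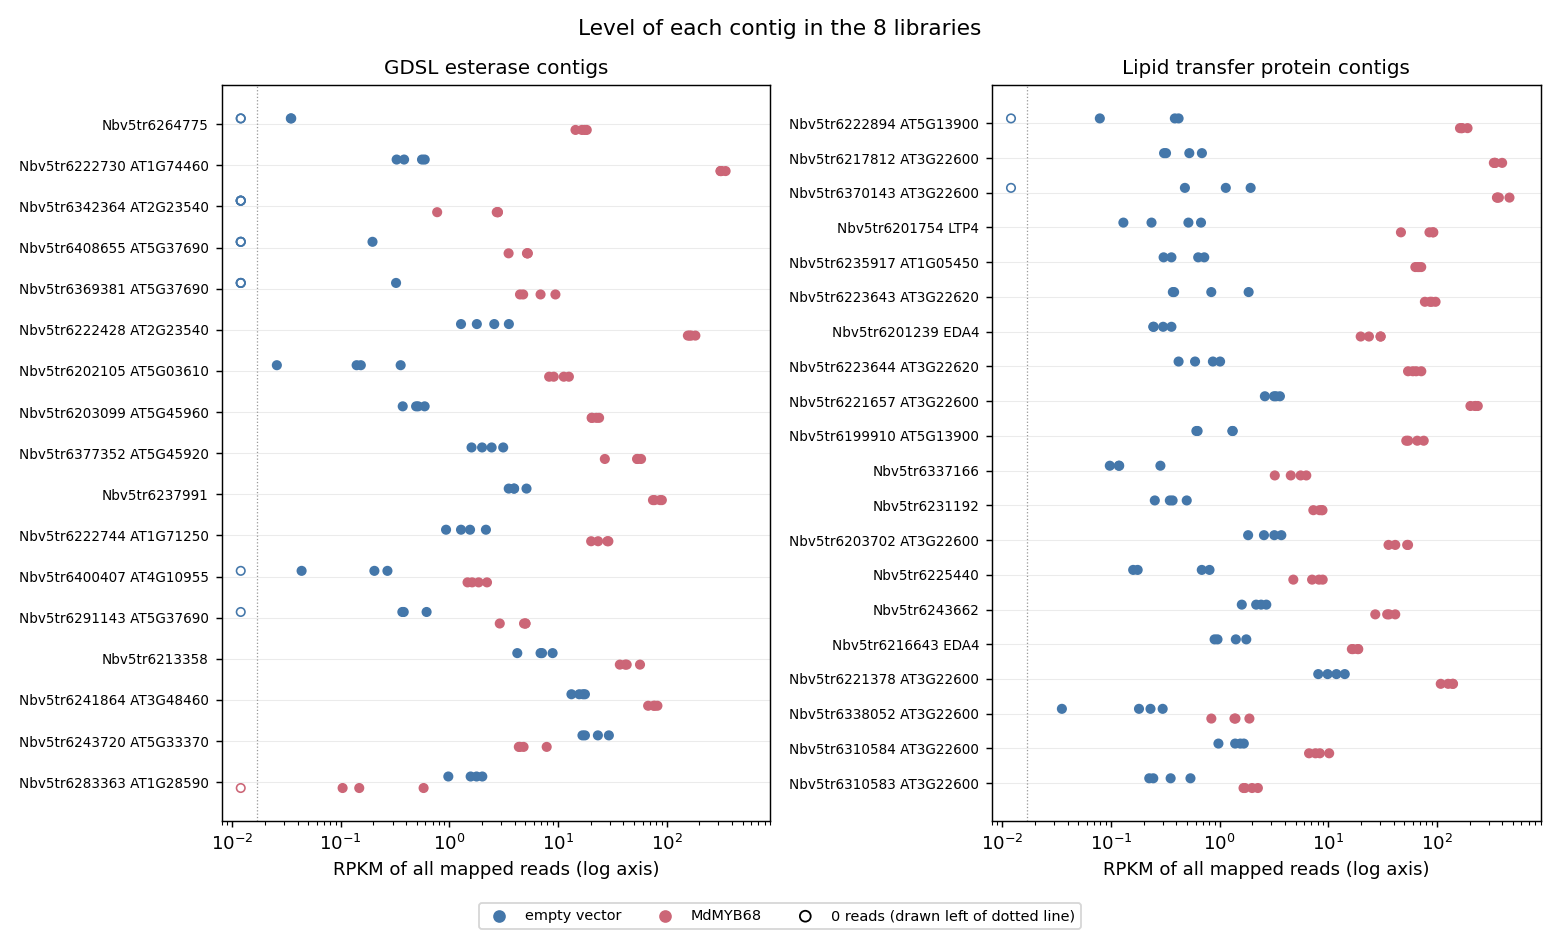
The levels of the 37 contigs in RPKM of all mapped reads (horizontal log axis) are drawn as 1 point per library, with GDSL esterases on the left and lipid transfer proteins on the right, each sorted by ratio. Blue points are the 4 empty vector libraries, red points the 4 MdMYB68 libraries, and open points left of the dotted line had no read. The groups do not overlap in any row, and the red points lie right of the blue ones except in the 2 lowest GDSL esterase rows.

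Other GDSL esterases were already read at several RPKM in control leaves. The GELP72-like contig Nbv5tr6241864 (AT3G48460) stood at 17.7, 17.0, 15.7 and 13.3 RPKM with the empty vector and at 82.3, 76.0, 77.9 and 67.6 RPKM with MdMYB68. Its libraries were close together in both groups, and the 4.77-fold difference, from 15.9 ± 1.95 to 75.9 ± 6.16 RPKM (SD, n = 4 each), gave a log2 fold change of 2.25 ± 0.12 (SE) and an adjusted p of 3.5e-08 in edgeR's quasi-likelihood test. This change was smaller than the median of all listed contigs. Under TMM factors it became -0.70 and was called lower, with an adjusted p of 0.0003 in edgeR's quasi-likelihood test. Nbv5tr6237991, annotated as GDSL esterase/lipase 2, a name that in Arabidopsis belongs to a secreted lipase of pathogen defence, stood at 5.13, 3.52, 3.94 and 3.94 RPKM with the empty vector and at 74.9, 87.0, 77.4 and 90.4 RPKM with MdMYB68. It rose 19.9-fold (adjusted p = 1.7e-09, edgeR) and was the third highest of the listed GDSL esterases with MdMYB68.

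The remaining GDSL esterases that rose are less well described. Nbv5tr6202105 (AT5G03610) rose 61.2-fold to 10.3 ± 1.96 RPKM (SD, n = 4), and its log2 fold change of 5.92 became 6.56 without empty vector replicate 3. Nbv5tr6203099 (AT5G45960) rose 44.3-fold to 21.9 ± 1.66 RPKM (SD, n = 4). The alternate contig Nbv5tr6377352 (AT5G45920) rose 21.0-fold, and its MdMYB68 libraries stood at 54.0, 58.2, 53.5 and 27.0 RPKM, with replicate 4 below the others. Nbv5tr6222744 (AT1G71250) stood at 2.17, 1.55, 1.28 and 0.932 RPKM with the empty vector and at 29.1, 23.4, 28.5 and 20.2 RPKM with MdMYB68, a 17.1-fold difference. Nbv5tr6400407 is kept apart, since it is annotated both as GDSL esterase/lipase At4g10955 and as UDP-glucose 4-epimerase 5, an enzyme of sugar nucleotide metabolism. It had no uniquely placed read, stood at 0.269, 0, 0.0436 and 0.204 RPKM with the empty vector and at 2.22, 1.62, 1.47 and 1.86 RPKM with MdMYB68, and its log2 fold change of 3.78 became 4.39 without empty vector replicate 1.

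The GDSL esterases included the 2 members with lower levels in leaves expressing MdMYB68. Nbv5tr6243720 matched AT5G33370, known in Arabidopsis as CUTIN SYNTHASE 2, which acts in the cuticle. It stood at 17.7, 29.4, 23.3 and 16.8 RPKM with the empty vector and at 7.87, 4.36, 4.82 and 4.46 RPKM with MdMYB68. In control leaves it was the highest of the listed GDSL esterases, and with MdMYB68 every library lay below every control library. The mean went from 21.8 ± 5.8 to 5.38 ± 1.67 RPKM (SD, n = 4 each), a ratio of 0.246 with a log2 fold change of -2.02 ± 0.25 (SE) and an adjusted p of 1.6e-05 in edgeR's quasi-likelihood test, and 97.6% of its reads were uniquely placed. Of the listed contigs 12.4% were called lower.

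The other lower contig, the alternate Nbv5tr6283363, matched AT1G28590. It stood at 1.57, 2.01, 0.978 and 1.78 RPKM with the empty vector and at 0.148, 0, 0.579 and 0.104 RPKM with MdMYB68. The groups did not overlap, but its log2 fold change of -2.94 ± 0.7 (SE) had an adjusted p of 0.00209 (edgeR) and was not called. Without MdMYB68 replicate 3, the highest of its group, it became -4.22 with an adjusted p of 2.4e-04 and would be called. The contig had no uniquely placed read. The primary contig annotated with the same Arabidopsis gene, Nbv5tr6213358, went the other way, from 4.22, 7.13, 6.91 and 8.92 RPKM to 37.1, 41.6, 42.9 and 56.9 RPKM, a 6.57-fold rise (adjusted p = 8.4e-07, edgeR) with all reads uniquely placed, and its log2 fold change became -0.23 under TMM factors.

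Among the lipid transfer proteins, the largest changes were in contigs matching the lipid transfer-like protein VAS (AT5G13900) and the GPI-anchored AT3G22600. The VAS-like contig Nbv5tr6222894 stood at 0.387, 0.0789, 0.419 and 0 RPKM with the empty vector and at 170.2, 163.3, 191.6 and 169.1 RPKM with MdMYB68. Its mean rose 784.7-fold, from 0.221 ± 0.213 to 173.6 ± 12.4 RPKM (SD, n = 4 each), with a log2 fold change of 9.62 ± 0.42 (SE) and an adjusted p of 6.6e-09 in edgeR's quasi-likelihood test. It rested on 21 control reads. The other VAS-like contig, Nbv5tr6199910, stood at 0.627, 1.32, 0.611 and 1.31 RPKM with the empty vector and at 52.3, 54.5, 66.0 and 75.7 RPKM with MdMYB68, a 64.1-fold rise.

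AT3G22600 was the best Arabidopsis match of 8 of the 20 lipid transfer protein contigs, 4 primary and 4 alternate, and the ratios of these 8 ran from 5.58 to 771.4. The primary contig Nbv5tr6217812 stood at 0.308, 0.526, 0.687 and 0.321 RPKM with the empty vector and at 343.3, 334.8, 399.0 and 343.1 RPKM with MdMYB68. It rose 771.4-fold, with a log2 fold change of 9.58 ± 0.23 (SE), an adjusted p of 2.8e-10 in edgeR's quasi-likelihood test and only uniquely placed reads. The alternate contig Nbv5tr6370143 stood at 0, 1.93, 1.14 and 0.479 RPKM with the empty vector and at 372.2, 357.4, 466.2 and 361.6 RPKM with MdMYB68. It had the highest level of all 37 contigs with MdMYB68 and the rank 65 among the 3305 listed contigs, but 7.63% of its reads were uniquely placed. Its log2 fold change of 8.76 ± 0.63 (SE) became 9.48 without empty vector replicate 2.

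Within the same AT3G22600 group, other contigs were expressed in control leaves and rose less. Nbv5tr6221378 stood at 14.2, 9.87, 8.09 and 11.9 RPKM with the empty vector, the highest of the listed lipid transfer proteins in control leaves. It stood at 108.6, 140.9, 127.0 and 139.8 RPKM with MdMYB68, an 11.7-fold rise (adjusted p = 2.6e-08, edgeR). Nbv5tr6221657 stood at 3.59, 3.3, 3.17 and 2.61 RPKM with the empty vector and at 225.1, 228.1, 238.1 and 203.8 RPKM with MdMYB68, a 70.6-fold rise. Nbv5tr6203702 stood at 3.19, 2.56, 3.7 and 1.83 RPKM with the empty vector and at 41.4, 35.9, 53.3 and 54.3 RPKM with MdMYB68, a 16.4-fold rise. The level in control leaves therefore did not order the contigs by their level with MdMYB68, where Nbv5tr6217812 and Nbv5tr6370143 came from means below 1 RPKM to the top of the group.

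The 3 smallest changes among the lipid transfer proteins were alternate AT3G22600 contigs with only uniquely placed reads. Nbv5tr6310583 stood at 0.539, 0.354, 0.225 and 0.245 RPKM with the empty vector and at 1.71, 1.66, 1.99 and 2.25 RPKM with MdMYB68. Nbv5tr6310584 stood at 1.67, 1.39, 0.975 and 1.55 RPKM with the empty vector and at 6.66, 8.37, 7.63 and 10.2 RPKM with MdMYB68. Nbv5tr6338052 stood at 0.181, 0.299, 0.0353 and 0.231 RPKM with the empty vector and at 0.839, 1.37, 1.4 and 1.88 RPKM with MdMYB68. They rose 5.58-fold, 5.88-fold and 7.36-fold with all mapped reads as library size, and turned to -0.46, -0.39 and -0.08 on the log2 scale under TMM factors.

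**Figure D3:**
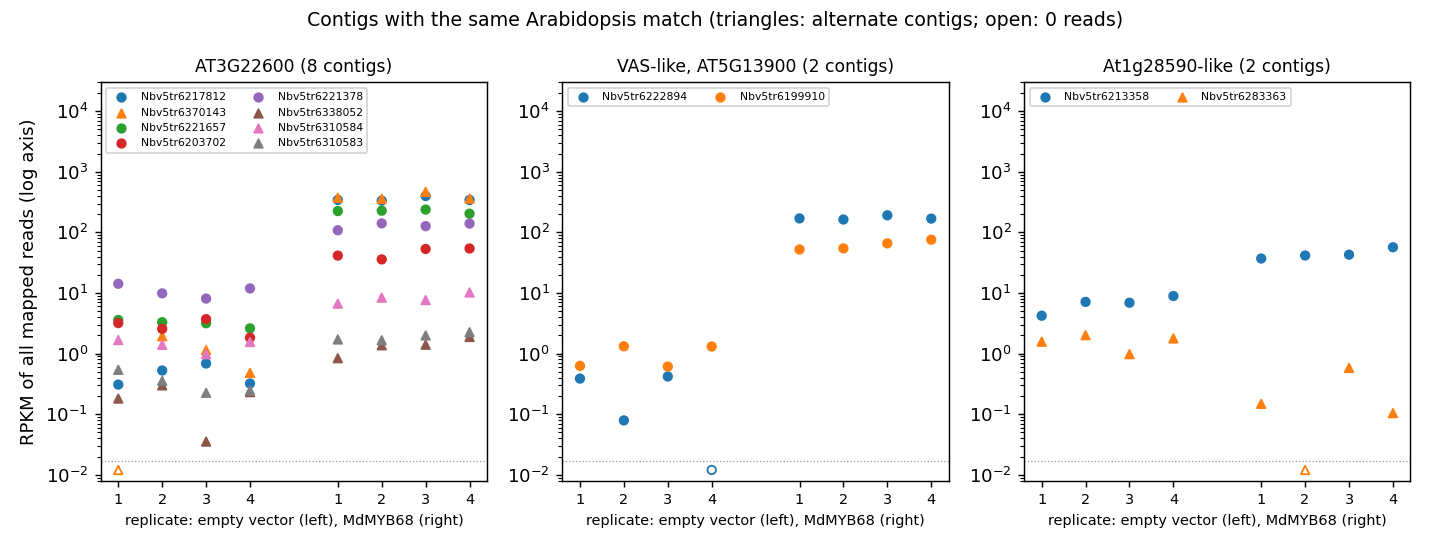
The level of each contig in RPKM of all mapped reads (vertical log axis) is drawn for replicates 1 to 4 of the empty vector (left of each panel) and of MdMYB68 (right). The contigs of a panel share an Arabidopsis symbol or, in the At1g28590 panel, a symbol or annotation that names the same gene. Circles are primary contigs, triangles alternate contigs, and open symbols below the dotted line had no read. The 8 AT3G22600 contigs and the 2 VAS-like contigs change rank between the groups, and in the At1g28590 panel 1 contig is higher and the other lower with MdMYB68, although the higher one turns negative when scaled on the listed contigs.

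The other lipid transfer proteins rose between 14.1-fold and 203.8-fold. The LTP4-like contig Nbv5tr6201754, named after a soluble, secreted lipid transfer protein, stood at 0.13, 0.516, 0.674 and 0.236 RPKM with the empty vector and at 92.8, 85.5, 46.7 and 91.9 RPKM with MdMYB68. Replicate 3 was the lowest of the MdMYB68 group, and it still was 69.3 times the highest control library. The AT1G05450-like contig Nbv5tr6235917 stood at 0.305, 0.36, 0.722 and 0.635 RPKM with the empty vector and at 63.4, 68.7, 66.6 and 71.8 RPKM with MdMYB68, a 133.8-fold rise with a log2 fold change of 7.05 ± 0.22 (SE) and an adjusted p of 9.5e-10 in edgeR's quasi-likelihood test. The AT3G22620-like contigs Nbv5tr6223643 and Nbv5tr6223644 rose 102.0-fold and 86.6-fold, with 49.3% and 48.1% of reads uniquely placed, and the log2 fold change of the former went from 6.66 to 7.37 without empty vector replicate 2.

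Of the EDA4-like contigs, named after an Arabidopsis gene of embryo sac development, Nbv5tr6201239 stood at 0.302, 0.247, 0.36 and 0.245 RPKM with the empty vector and at 19.9, 30.3, 23.7 and 30.4 RPKM with MdMYB68, a 90.3-fold rise. The other, Nbv5tr6216643, stood at 0.899, 1.76, 0.956 and 1.41 RPKM with the empty vector and at 16.9, 16.5, 18.7 and 18.9 RPKM with MdMYB68, a 14.1-fold rise. The contig that was lower in control leaves was thus the higher one with MdMYB68. Nbv5tr6231192, Nbv5tr6225440 and Nbv5tr6243662, non-specific lipid transfer protein contigs without a symbol, rose 22.6-fold, 15.9-fold and 15.7-fold. Nbv5tr6337166 is kept apart, because its annotations are Protein WAX2 and a lipid transfer protein glossy1 homolog. WAX2 of Arabidopsis acts in the formation of wax alkanes and is not a lipid transfer protein. This contig rose 31.6-fold to 4.9 ± 1.33 RPKM (SD, n = 4) and had no uniquely placed read. Without it and Nbv5tr6400407 the median log2 ratios were 6.0 for the lipid transfer proteins and 4.93 for the GDSL esterases.

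For 6 pairs of contigs with the same Arabidopsis symbol or annotated gene, the log2 ratio of their reads was compared between the groups. Nbv5tr6264775 and Nbv5tr6213358 have no symbol and were paired by an annotation that names the gene. The test was a two-sided exact permutation test, in which 4 libraries against 4 cannot give a p under 0.0286. The VAS-like pair went from -2.23 ± 2.67 with the empty vector to 2.04 ± 0.23 with MdMYB68 (SD, n = 4 each, Nbv5tr6222894 over Nbv5tr6199910). The EDA4-like pair went from -1.75 ± 0.69 to 0.82 ± 0.29 (SD, n = 4 each, Nbv5tr6201239 over Nbv5tr6216643), and the At1g28590 pair from 2.16 ± 0.6 to 8.83 ± 2.47 (SD, n = 4 each, Nbv5tr6213358 over Nbv5tr6283363). In each of these 3 pairs the groups did not overlap and the exact permutation p was 0.0286, or 0.0572 after Benjamini-Hochberg adjustment over the 6 pairs, so that none passed 0.05. All paired contigs had been selected as changed on these same libraries, so these p-values are not independent evidence. The contigs of the At1g28590 pair had been selected as changed in opposite directions, so a shift of their ratio was fixed before the test. For the GELP38-like, GELP51-like and AT3G22620-like pairs the groups overlapped, with differences of -0.39, 0.92 and 0.48 and exact permutation p of 0.486, 0.171 and 0.429. These ratios are of reads with 0.5 added and are thus rough where a contig had few.

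Summed over the listed contigs, the lipid transfer proteins had fewer reads than the GDSL esterases in control leaves and more with MdMYB68. Every listed contig had been selected as changed, and unchanged contigs of either family are missing. The sums therefore do not measure the whole families. The GDSL esterases took 74.4, 97.5, 83.5 and 72.8 RPM (reads scaled to the total mapped in the library, without contig length) with the empty vector and 1153.0, 1180.2, 1217.3 and 1186.7 with MdMYB68, or 82.0 ± 11.3 against 1184.3 ± 26.4 (SD, n = 4 each), a 14.4-fold difference. The lipid transfer proteins took 27.7, 28.0, 23.8 and 25.4 RPM with the empty vector and 1400.1, 1453.0, 1592.0 and 1494.5 with MdMYB68, or 26.2 ± 1.99 against 1484.9 ± 81.2 (SD, n = 4 each), a 56.6-fold difference. The ratio of lipid transfer protein reads to GDSL esterase reads, which no scaling of the libraries can move, was 0.372, 0.287, 0.285 and 0.349 with the empty vector and 1.21, 1.23, 1.31 and 1.26 with MdMYB68. It was higher in every MdMYB68 library than in any control library, by 3.87-fold in the mean.

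The crossing of the family sums depended in part on which reads and contigs were counted. Per kilobase of contig the ratio of the sums went from 0.499 to 2.12. With uniquely placed reads it went from 0.265 to 0.927, a 3.5-fold change that left the listed GDSL esterases with the larger sum in both groups. Without the lower GDSL esterase contig Nbv5tr6243720 the ratio went from 0.522 to 1.27, a 2.42-fold change, and the GDSL esterase sum itself changed 23.4-fold in place of 14.4-fold.

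**Figure D4:**
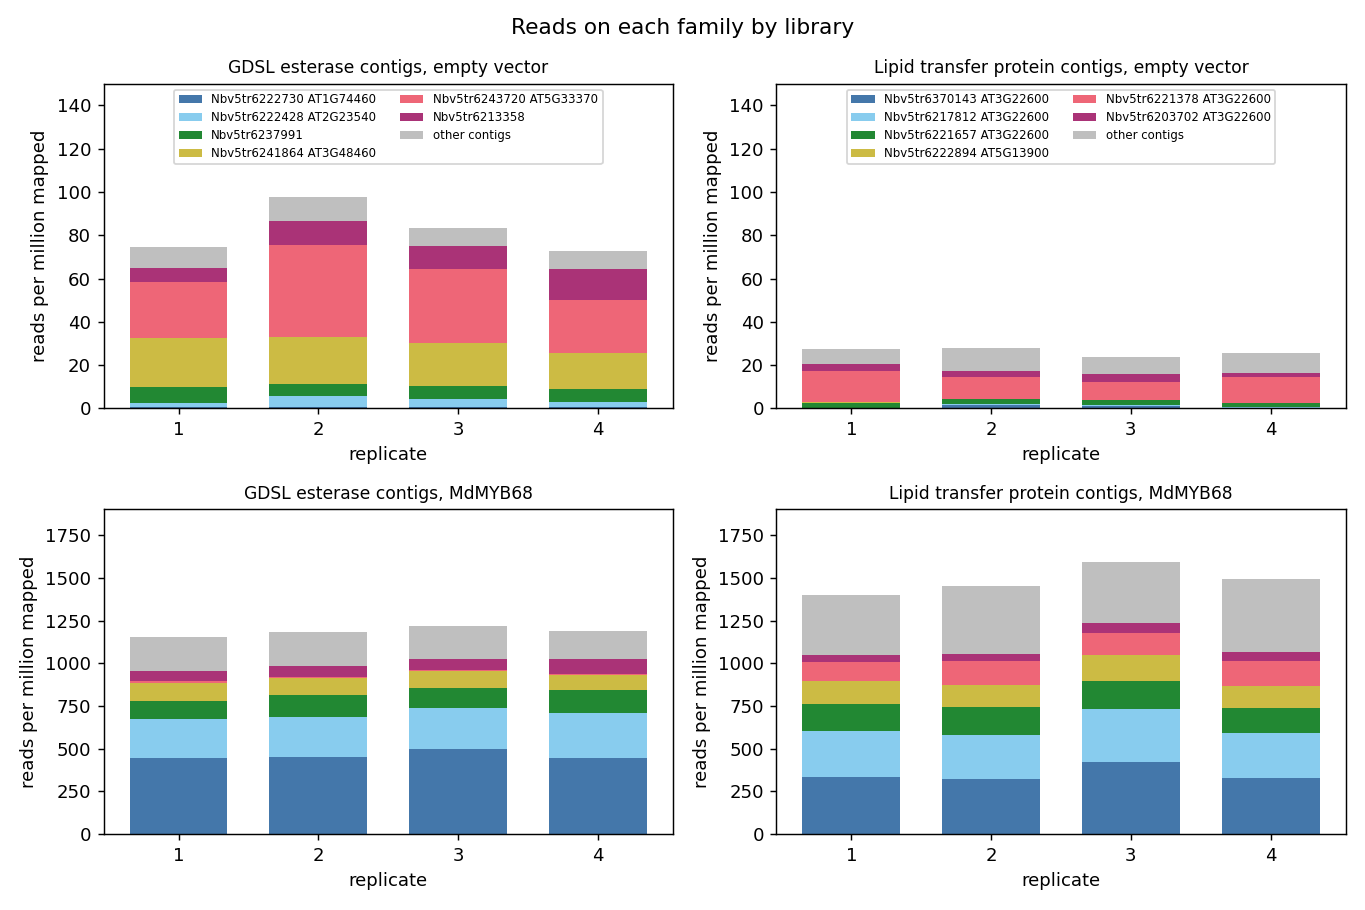
Bars give the RPM of all mapped reads (reads scaled by library total) on the listed contigs of each family in each replicate. The empty vector is in the top row and MdMYB68 in the bottom row on a different vertical scale, and colours give the contigs with the most reads. Contigs that did not change are not in the sums. The GDSL esterase bars stand at 72.8 to 97.5 and at 1153.0 to 1217.3, and the lipid transfer protein bars at 23.8 to 28.0 and at 1400.1 to 1592.0. The contigs that fill the bars differ between the rows.

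Among the listed contigs, different ones led each family in the 2 groups. Shares are of the reads on listed contigs of a family, since unchanged contigs are absent. In control leaves Nbv5tr6243720 held 38.2% ± 4.86 of GDSL esterase reads and the GELP72-like Nbv5tr6241864 held 25.0% ± 3.67 (SD, n = 4). With MdMYB68 these shares were 0.663% ± 0.221 and 8.19% ± 0.75, while the GELP38-like Nbv5tr6222730 went from 0.797% ± 0.14 to 38.9% ± 1.34 and the GELP51-like Nbv5tr6222428 from 3.91% ± 1.18 to 20.4% ± 1.26 (SD, n = 4). In the lipid transfer proteins Nbv5tr6221378 went from 42.5% ± 8.66 to 8.84% ± 0.989, and Nbv5tr6370143 and Nbv5tr6217812 led with MdMYB68 at 23.7% ± 2.11 and 18.5% ± 0.818 (SD, n = 4). Only 7.63% of the reads of Nbv5tr6370143 were uniquely placed. When uniquely placed reads alone were counted, its share with MdMYB68 was 2.61% ± 0.202, and Nbv5tr6217812 with 26.6% ± 1.77 and Nbv5tr6221657 with 15.2% ± 1.11 held the most (SD, n = 4). With either count, the lead in the lipid transfer proteins passed between contigs of the same AT3G22600 match, and in the GDSL esterases between contigs of different matches.

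Features that the rule had not used were described for both families, without a test. The median contig was 1423 bases long in the GDSL esterases, with a range of 893 to 1566, and 888 bases in the lipid transfer proteins, with a range of 543 to 1048, beside 1220 over all listed contigs. Alternate contigs made up 8 of 17 GDSL esterases and 5 of 20 lipid transfer proteins, beside 1474 of the 3305 listed contigs. Under 10% of reads were uniquely placed in 5 GDSL esterases and 2 lipid transfer proteins, and at least 90% in 9 and 12 of them, beside 758 and 1444 of the listed contigs. The median coefficient of variation over 4 libraries was 31.9% in the GDSL esterases and 39.8% in the lipid transfer proteins with the empty vector, and 18.2% and 13.8% with MdMYB68, beside 30.0% and 14.5% over all listed contigs. The authors' cut-offs of a 4-fold change and a difference of 5 RPKM, recomputed with all mapped reads as the denominator, were met by 12 of 17 GDSL esterases, 17 of 20 lipid transfer proteins and 2267 of all listed contigs.

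**Figure D5:**
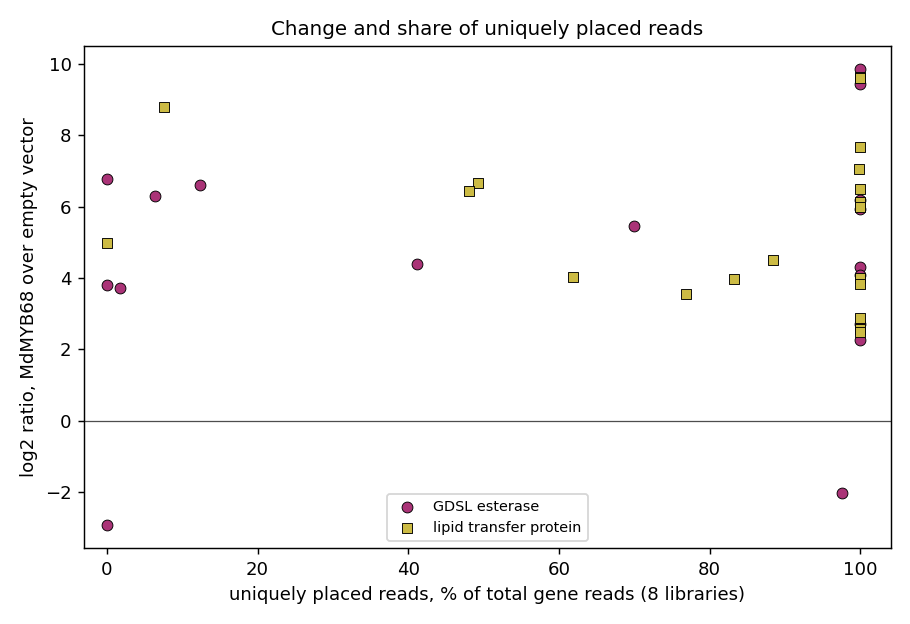
The log2 ratio of mean levels, MdMYB68 over empty vector (vertical axis), is plotted against the percent of a contig's reads that were uniquely placed over the 8 libraries (horizontal axis), with circles for GDSL esterases and squares for lipid transfer proteins. Contigs at 100% span from 2.25 to 9.86. Of the 2 contigs below 0, Nbv5tr6243720 lies at 97.6% and Nbv5tr6283363 at 0%.

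Other gene families with members that act in suberin and cutin formation were counted beside both families. The keywords take whole families, so not every contig counted is a gene of these polymers. Of 71 listed contigs found by keyword, members left out, 70 were called higher and 1 lower, with a median log2 ratio of 6.67. Every listed contig had been selected as changed, and 83.4% of them were called higher, so these counts are given as a description. They comprised the omega-hydroxylases CYP86 (20 of 20 higher, median 6.53), glycerol-3-phosphate acyltransferases, which link fatty acids to glycerol (4 of 5 higher and 1 lower, 3.25), fatty acyl reductases (3 of 3, 4.74), feruloyl transferases (5 of 5, 6.45), 3-ketoacyl-CoA synthases, which elongate fatty acids (6 of 6, 3.49), and ABCG transporters, which export lipids among other compounds (32 of 32, 7.74). The medians of both families studied here lay below the pooled 6.67, to which ABCG transporters gave 32 of the 71 contigs, and above the 3.35 of all listed contigs. By list, the medians of CYP86, feruloyl transferases and ABCG transporters lay above both families. That of the fatty acyl reductases lay between them, and those of the acyltransferases and 3-ketoacyl-CoA synthases lay below both.

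Listed markers of leaf mesophyll and of root endodermis moved with the groups. No listed contig matched the marker list for xylem secondary wall, which held only cellulose synthase subunits of that wall. Genes of xylan synthesis, which the paper reports as induced, were not on that list. Every listed contig had been selected as changed, and over all of them 83.4% were called higher and 12.4% lower. The marker counts are therefore given as a description. Of 64 photosynthesis contigs, 63 were called lower and 1 was not called, with a median log2 ratio of -2.06, and their summed level was 37032.9 to 53729.6 RPKM with the empty vector and 8471.6 to 13181.8 RPKM with MdMYB68. All 10 Casparian strip membrane protein contigs were called higher, with a summed level of 0.454 to 1.39 RPKM with the empty vector and 1293.7 to 1578.2 RPKM with MdMYB68. Their part in the changes of the GDSL esterases and lipid transfer proteins was not tested.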

How the data were processed

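RNA-seq of N. benthamiana leaves was analysed from the table that the authors deposited. The authors trimmed the reads, mapped them with CLC Genomics Workbench to a N. benthamiana transcriptome of primary and alternate contigs, and deposited counts of total gene reads and of uniquely placed reads per contig and library, without normalization. They also deposited RPKM, scaled by contig size and by the mapped reads of the set, primary or alternate, that holds the contig. The table holds only contigs that passed their cut-offs of a 4-fold change, a difference of 5 RPKM and a false discovery rate of 0.001. Its fold changes, p-values and group means are the authors' own comparisons and were not used.

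The number of reads mapped in each library was recovered from deposited counts, contig sizes and RPKM, and levels were computed again with all mapped reads as the denominator. Counts were tested with edgeR 4.0.16 in R 4.3.3, without covariates and with normalization factors of 1, since factors from a list of changed contigs assume that most are unchanged. The authors' test on proportions was not used. The SE is the log2 fold change divided by the square root of F. The ratio is taken against 3 reads over the group where a group had none, and has a 95% exact Clopper-Pearson interval with 1 to 3 reads, both for counting error only. The steps were also run on simulated counts in which few contigs changed, up and down alike, with known library totals. In these data most listed contigs were called higher, so the simulation does not bear on the choice of scaling. Alternatives used DESeq2 1.42.0, limma 3.58.1 with pseudocounts of 1 and 0.1, TMM factors, uniquely placed reads, a mean of at least 10 reads, a replicate block, a threshold of 0.05 and the omission of each library in turn. Python 3.11.15 with pandas 2.3.3, numpy 2.4.6, scipy 1.17.1 and matplotlib 3.10.9 was used for the rest.

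Values in each library are given for members by level (3 highest per group and family), by ratio (3 largest and smallest), for those lower with MdMYB68, not called or without reads in a group, for the contigs that the study singled out and for some others that share their match. The members, lists and rules were chosen with earlier results of these data known. Contig sequences were not used here.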

Additional observations from a re-analysis of the deposited data

Results flagged for a closer look

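In 12 of 79 groups of 4 libraries, 1 library stood apart from the others by more than Dixon's critical share of the group's range. Chance gives about 1 in 20 for normal, independent values. Contigs here share reads, and some flags come from a single library with reads, so the count cannot be set against that rate. The GELP38-like contig Nbv5tr6222730 was highest in MdMYB68 replicate 3, at 349.3 RPKM against 319.2 in the next library. The AT3G22600-like contigs Nbv5tr6217812 and Nbv5tr6370143 were highest in the same library, at 399.0 RPKM against 343.3 and at 466.2 RPKM against 372.2. In that library the LTP4-like contig Nbv5tr6201754 was lowest, at 46.7 RPKM against 85.5, and so was the GELP96-like contig Nbv5tr6291143, at 2.91 RPKM against 4.87.

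Of the other flags, 2 fell in empty vector replicate 2. Nbv5tr6342364, matching GELP51, was lowest in MdMYB68 replicate 2, at 0.772 RPKM from 31 reads against 2.73 RPKM. Nbv5tr6408655, matching GELP96, was lowest in MdMYB68 replicate 1, at 3.51 RPKM against 5.18, and was read in empty vector replicate 2 alone, at 0.196 RPKM from 7 reads. Nbv5tr6369381, with the same match, was also read in that control library alone, at 0.323 RPKM from 14 reads. The WAX2-like contig Nbv5tr6337166 was highest in empty vector replicate 3, at 0.285 RPKM from 9 reads against 0.119 RPKM. Nbv5tr6377352 was lowest in MdMYB68 replicate 4, at 27.0 RPKM against 53.5. The lower contig Nbv5tr6243720 was highest in MdMYB68 replicate 1, at 7.87 RPKM against 4.82, and each MdMYB68 library remained below each control library.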

How the results depend on the processing

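Over 662 values of single members under the alternatives, 621 kept their direction and their side of the threshold, 10 reversed, 27 lost the call and 4 gained it. The 10 reversals were of 5 contigs. Under TMM factors and under DESeq2's median-of-ratios factors, respectively, the log2 fold changes were -0.08 and -0.06 for Nbv5tr6338052, -0.23 and -0.21 for Nbv5tr6213358, -0.39 and -0.37 for Nbv5tr6310584, -0.46 and -0.44 for Nbv5tr6310583, and -0.70 and -0.67 for Nbv5tr6241864. Only Nbv5tr6241864 was called lower, under both. TMM factors gave 10 GDSL esterase calls (7 higher, 3 lower), 11 lipid transfer protein calls and 1576 in all (964 higher, 612 lower), against 16, 20 and 3168, with family medians of 1.43 and 2.54. DESeq2's factors gave 1977 calls (1227 higher, 750 lower) and medians of 1.46 and 2.57. The medians against the fitted 4.39 and 5.47 were 4.55 and 5.98 with uniquely placed reads (14 and 19 members) and 3.69 and 4.25 with limma on log2(RPKM + 1), where the family difference was 0.56 against 1.08. The GDSL esterase median was 4.56 with library totals without the listed contigs, an alternative chosen after seeing the data. The lipid transfer protein median and the difference were 5.98 and 1.59 where both annotations hold the keyword, and 6.06 and 1.74 with at least 90% uniquely placed reads. The ratio of family reads changed 2.42-fold without Nbv5tr6243720, against 3.87-fold, and this and the shares of uniquely placed reads within a family were also chosen after seeing the data. Leaving out each library gave GDSL esterase medians of 4.29 to 4.58, lipid transfer protein medians of 5.31 to 5.61 and differences of 0.76 to 1.22, with no reversal among 296 values, 2 calls lost and 1 gained. With a replicate block 13 GDSL esterases, 17 lipid transfer proteins and 2615 contigs in all were called. No pairing by replicate number is stated in the sample labels. The correlations of same-numbered libraries' deviations were between -0.037 and -0.008, which cannot exclude a pairing. Few control reads limit the ratios of contigs that were near 0 with the empty vector, shared reads limit those of alternate contigs, and a table of selected contigs cannot show members that did not change.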
